A study of Rattus norvegicus with 8 samples.

Results

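The insulin-like growth factor (IGF) system was examined in rat ovary through 10 genes chosen by name: the ligands Igf1 and Igf2, the receptors Igf1r and Igf2r, the binding proteins Igfbp2, Igfbp3, Igfbp4, Igfbp5 and Igfbp6, and the protease Pappa. Every array probe that carried one of these gene names was taken. This gave 13 probes for the 10 genes, out of 30367 probes with 26214 gene names on the array. Igf1, Igfbp2 and Igfbp5 had 2 probes each, and the remaining genes had 1 each.

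Ovary RNA was measured on 8 one-colour Agilent rat arrays, 4 labelled control and 4 labelled PMSG. PMSG, pregnant mare serum gonadotropin, is a hormone preparation that acts mainly like follicle-stimulating hormone and drives follicle growth in immature rats. Per the labels, female rats aged 26 days were given a dose of 50 IU PMSG, carried in 0.2 ml of phosphate buffer with albumin, or the same volume of buffer without hormone, under the skin. The titles of the control arrays read "Reference without treatment" and name no buffer injection. Ovaries of both groups were collected 48 h later, at 28 days; no strain or genotype is given in the labels. The labels number the arrays of each group 1 to 4 and do not say that each is a different animal, so the p-values measure the spread between these 8 arrays, which may in part be technical.

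IGF-1 and IGF-2 are secreted growth factors that signal through the tyrosine kinase receptor IGF1R, while IGF2R, the mannose 6-phosphate receptor, takes up IGF-2 for breakdown in lysosomes. The binding proteins hold IGFs outside the cell and set how much of them can reach the receptors, and the metalloprotease pappalysin-1, encoded by Pappa, releases IGF by cutting IGFBP-4 and IGFBP-5. In the ovary IGF-1 is known to act with follicle-stimulating hormone on granulosa cells, and cleavage of IGFBP-4 by pappalysin-1 is known as a property of growing dominant follicles.

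Levels below are log2 processed signals minus the 75th percentile of the array, so a level of 0 equals the signal that 75% of the probes on that array did not exceed. Differences are levels on arrays labelled PMSG minus levels on arrays labelled control. A probe was called different when its limma adjusted p, taken over all 25303 probes tested, was under 0.05. Levels of different probes cannot be set against each other, because probes differ in their response to the same amount of RNA.

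The labels and the known response to gonadotropin ran in opposite directions on these arrays, and every direction below follows the labels. Whether the titles of the groups were exchanged was not tested; if they were, every difference below would change its sign. Genes that gonadotropin is known to raise were lower on the arrays labelled PMSG: Cyp11a1, the enzyme that starts steroid synthesis, by a log2 difference of -3.36, Star, its cholesterol transporter, by -2.75, Lhcgr, the luteinising hormone receptor, by -1.93, and Inhba, an inhibin and activin subunit, by -1.32. For Inhba the groups overlapped, and its call was lost in 7 of 23 alternative processings. Amh, a product of small follicles, was higher by 3.03. All 6 gonadotropin response genes with a probe were called lower, against 16.5% of all genes tested. Their mean level ran from 1.56 to 2.15 on the control arrays and from -1.97 to -0.79 on the PMSG arrays. Granulosa, theca and oocyte markers were each detected on at least 1 array. In the fit with estimated array weights, PMSG array 4 had a weight of 0.279 and PMSG array 3 a weight of 0.673, against 0.836 to 1.95 for the other arrays. All 8 arrays lay on 1 slide, in 2 rows of array positions with 2 arrays of each label per row.

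The array's own probes are 60 bases long, and those of 5 members are shown as examples of the stretch of message measured, among them 2 of the genes that were lower, Igf1r and Pappa. The sequences are those in the array files, 5′ to 3′ in the sense of the transcript, with positions on the build rn4. Igf1 is represented by its dimmer probe at chr7:24587916-24587975, Igf1r by chr1:122989150-122989209, Igfbp2 by its dimmer probe at chr9:71993843-71993902, Igfbp6 by chr7:140888422-140888481, and Pappa by chr5:82078667-82085444, all on the plus strand. The Pappa probe covers 60 bases of sequence over 6778 bases of the genome, so it crosses at least 1 splice junction. The Igfbp2 probe ends in the stop codon TAA, given in capitals, of the frame that is open from its first base. An annotation of rn4 was not used here, so exons and untranslated regions are not assigned to the probes.
Igf1: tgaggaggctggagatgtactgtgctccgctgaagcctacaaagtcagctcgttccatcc
Igf1r: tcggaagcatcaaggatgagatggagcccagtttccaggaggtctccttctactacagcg
Igfbp2: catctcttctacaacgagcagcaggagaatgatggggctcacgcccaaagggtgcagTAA
Igfbp6: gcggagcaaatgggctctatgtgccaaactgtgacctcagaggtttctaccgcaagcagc
Pappa: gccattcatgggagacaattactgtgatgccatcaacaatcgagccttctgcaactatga

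On the arrays labelled PMSG the ligands Igf1 and Igf2 and the binding proteins Igfbp2, Igfbp3 and Igfbp5 were higher, and both receptors and Pappa were lower. Igfbp4 and Igfbp6 were not called. With each gene represented by its brightest probe, 8 of the 10 genes were called, 5 higher and 3 lower, against 34.5% of all genes tested, 18% higher and 16.5% lower. The groups did not overlap for 8 of the 10 genes, against 37% of all genes. Of the 10 genes, 4 were both called and at least 2-fold different (Igfbp3, Pappa, Igf2 and Igf1r), against 12% of all genes. When the arrays were centred on their medians instead, 5 genes were called, 2 higher and 3 lower, while the split over all probes moved from 4452 higher and 4206 lower to 2914 higher and 5534 lower. Over single probes, 10 of 13 were called, 7 higher and 3 lower, against 34.2% of all probes, 17.6% higher and 16.6% lower, and the groups did not overlap for 11 of 13, against 36.6%. The median difference of the 13 probes was 0.43, and that of all 25303 tested probes was 0.11. Each of the 13 probes gave a signal well above background on every array. In bulk tissue, more RNA of a gene per cell and more cells of a type that holds it cannot be told apart.

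**Figure D1:**
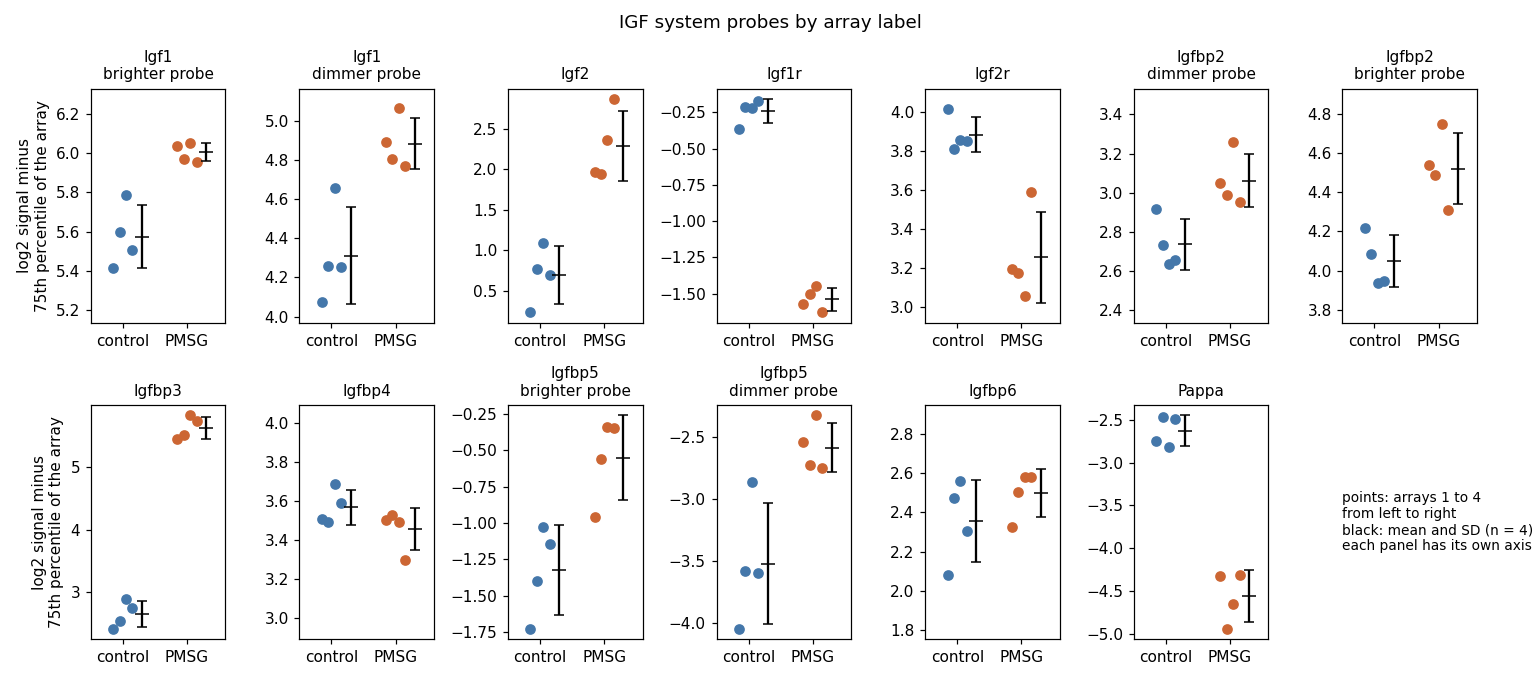
Level of each of the 13 probes on each array, as log2 signal minus the 75th percentile of the array; blue points are arrays labelled control, orange points arrays labelled PMSG, in the order of arrays 1 to 4, and black marks give the mean and SD (n = 4). Each panel has its own vertical axis; the groups overlap only in the Igfbp4 and Igfbp6 panels.

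Igf2, the ligand best known from fetal growth, was the more changed of the ligands. Its probe at chr1:202906641-202906700, on the minus strand, had levels of 0.23, 0.76, 1.09 and 0.70 on control arrays 1 to 4 and of 1.97, 1.94, 2.37 and 2.87 on PMSG arrays 1 to 4. Every PMSG array lay above every control array, with PMSG array 4 the highest and control array 1 the lowest. The mean level was 0.70 ± 0.35 (SD, n = 4) on control arrays and 2.29 ± 0.43 on PMSG arrays, a difference of 1.59 (SE 0.25, limma adjusted p = 0.00203), or 3.01-fold with a 95% interval from 2.02 to 4.49.

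Igf1, the growth factor that granulosa cells are known to make in growing rat follicles, was higher by both of its probes. The brighter probe, at chr7:24604715-24604774, had levels of 5.41, 5.60, 5.79 and 5.51 on control arrays 1 to 4 and of 6.04, 5.97, 6.05 and 5.96 on PMSG arrays 1 to 4. The PMSG arrays lay within a span narrower than that of the control arrays and above all of them. The difference was 0.43 (SE 0.10, limma adjusted p = 0.0142), or 1.35-fold. Median centring of the arrays gave 0.26 with an adjusted p of 0.135, and quantile normalization gave 0.37 with an adjusted p of 0.0502, so the call was lost under both.

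The dimmer Igf1 probe, whose sequence is shown above, had levels of 4.08, 4.26, 4.66 and 4.25 on control arrays and of 4.89, 4.81, 5.07 and 4.77 on PMSG arrays. Array 3 was the highest of each group, and the groups did not overlap. The difference was 0.57 (SE 0.14, limma adjusted p = 0.0156), or 1.49-fold, and it kept its call under median centring and quantile normalization. Without PMSG arrays 3 and 4, an alternative chosen after seeing the data, it was 0.54 with an adjusted p of 0.0563.

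Igf1r, which encodes the signalling receptor for both ligands, had the smallest standard error of the 13 probes. Its probe, spotted 10 times on each array, had levels of -0.36, -0.22, -0.22 and -0.17 on control arrays 1 to 4 and of -1.57, -1.50, -1.45 and -1.63 on PMSG arrays 1 to 4. The groups were far apart relative to the spread within either, with an SD of 0.08 in each. The difference was -1.30 (SE 0.09, limma adjusted p = 7.84e-05), a level 2.45-fold lower on PMSG arrays with a 95% interval from 2.12 to 2.83.

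Igf2r, the receptor that clears IGF-2, was lower by a smaller amount. Its probe at chr1:42340766-42340825, on the plus strand, had levels of 4.01, 3.81, 3.85 and 3.85 on control arrays and of 3.20, 3.17, 3.06 and 3.59 on PMSG arrays. PMSG array 4 stood above the other PMSG arrays and still below every control array. The difference was -0.63 (SE 0.13, limma adjusted p = 0.00720), or 1.55-fold lower. Without PMSG arrays 3 and 4 the difference was -0.70.

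Members of one role were next compared with each other by the difference between their changes, together with 2 pairs of neighbouring binding protein genes described below. These 4 pairs were chosen after their values were seen, and the smallest p that an exact two-sided permutation test allows with 4 arrays against 4 is 0.0286. Adjustment over the 4 pairs does not correct for that choice, so these p-values only describe how the labels separated. The rise of Igf2 was larger than that of the brighter Igf1 probe by 1.16 (exact permutation p = 0.0286, 0.0381 adjusted over the 4 pairs). The fall of Igf1r was larger than that of Igf2r, with a difference of -0.67 at the same p. For both pairs the within-array difference between the genes had no overlap between the labels, since the p is the smallest possible.

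Igfbp3, which encodes the main IGF carrier in blood and is also made in many tissues, had the largest difference of the 10 genes. Its probe at chr14:87959244-87959303, on the minus strand, had levels of 2.42, 2.55, 2.89 and 2.76 on control arrays 1 to 4 and of 5.43, 5.51, 5.82 and 5.72 on PMSG arrays 1 to 4. The lowest PMSG array lay far above the highest control array, and within each label array 3 was the highest and array 1 the lowest. The difference was 2.96 (SE 0.14, limma adjusted p = 2.11e-05), or 7.81-fold with a 95% interval from 6.24 to 9.77. Over the 23 alternatives it ran from 2.80 to 3.04.

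Igfbp1, the neighbour of Igfbp3 with a probe 4448 bases away on the other strand of chromosome 14, served as a local comparison. Its levels were -1.49, -1.96, -1.81 and -1.87 on control arrays and -1.33, -1.73, -1.19 and -1.97 on PMSG arrays. The groups overlapped, and the difference of 0.23 was not called (limma adjusted p = 0.385). The change of Igfbp3 exceeded that of Igfbp1 by 2.74 (exact permutation p = 0.0286, 0.0381 adjusted over the 4 pairs). This pair too was chosen after its values were seen, so the p describes the separation only.

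Igfbp5, a binding protein that attaches to extracellular matrix and a substrate of pappalysin-1, was higher by both probes. The brighter probe, at chr9:72000312-72000371 on the minus strand, had levels of -1.73, -1.40, -1.02 and -1.15 on control arrays and of -0.96, -0.56, -0.34 and -0.34 on PMSG arrays. The groups were separated only narrowly, by PMSG array 1 and control array 3. The difference was 0.77 (SE 0.20, limma adjusted p = 0.0175), or 1.71-fold. It lost its call under median centring (0.61, adjusted p = 0.0685) and without PMSG arrays 3 and 4 (0.57, adjusted p = 0.102).

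The dimmer Igfbp5 probe, at chr9:72003659-72003718 on the minus strand, had levels of -4.05, -3.58, -2.86 and -3.59 on control arrays and of -2.54, -2.73, -2.33 and -2.75 on PMSG arrays. Control array 3 came closest to the PMSG arrays. The difference was 0.93 (SE 0.24, limma adjusted p = 0.0177), or 1.91-fold. It kept its call under median centring, and without PMSG arrays 3 and 4 it was 0.88 with an adjusted p of 0.0727.

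Igfbp2, a binding protein that prefers IGF-2, lies beside Igfbp5 on chromosome 9. Its brighter probe, at chr9:71994131-71994190 on the plus strand, had levels of 4.22, 4.09, 3.94 and 3.95 on control arrays and of 4.54, 4.49, 4.75 and 4.31 on PMSG arrays. The groups did not overlap, with control array 1 and PMSG array 4 nearest to each other. The difference was 0.47 (SE 0.12, limma adjusted p = 0.0189), or 1.39-fold. The call was lost under median centring (0.31, adjusted p = 0.0673), without control array 3 (0.44, adjusted p = 0.0527) and without control array 4 (0.44, adjusted p = 0.0568).

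The dimmer Igfbp2 probe, which ends in the TAA shown above, had levels of 2.92, 2.73, 2.64 and 2.65 on control arrays and of 3.05, 2.99, 3.26 and 2.95 on PMSG arrays. The groups did not overlap, and the difference of 0.33 (SE 0.11) missed the threshold with a limma adjusted p of 0.0518. It passed in 6 of the 22 alternatives tried for it. The brighter probes of Igfbp2 and Igfbp5, whose nearest ends are 6121 bases apart, differed in their change by -0.30, which the exact permutation test did not separate from 0 (p = 0.4).

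Igfbp4, the substrate of pappalysin-1 best known from follicles, was not called. Its probe at chr10:87834213-87834272 had levels of 3.51, 3.49, 3.69 and 3.59 on control arrays and of 3.50, 3.53, 3.49 and 3.30 on PMSG arrays. The groups overlapped. The difference was -0.11 (SE 0.10, 95% interval -0.34 to 0.11, limma adjusted p = 0.380), and under quantile normalization it was 0.037. This interval leaves out differences of the size seen for Igfbp2, Igfbp5 or Igfbp3 in the upward direction.

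Igfbp6, a binding protein with a strong preference for IGF-2, was not called either. Its probe had levels of 2.08, 2.48, 2.56 and 2.31 on control arrays and of 2.32, 2.51, 2.58 and 2.58 on PMSG arrays. The PMSG arrays overlapped the upper part of the control range, with PMSG array 1 the lowest of them. The difference was 0.14 (SE 0.13, 95% interval -0.15 to 0.44, limma adjusted p = 0.409), and under median centring it was -0.025. Of the 5 binding protein genes, 3 were therefore called, all higher, against 34.5% of all genes called and 18% called higher. Under median centring Igfbp2 and Igfbp5 lost their calls and Igfbp3 kept it.

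Pappa, the protease gene, was lower on every PMSG array. Its levels were -2.74, -2.46, -2.82 and -2.49 on control arrays 1 to 4 and -4.32, -4.94, -4.65 and -4.31 on PMSG arrays 1 to 4. The highest PMSG array lay well below the lowest control array. The difference was -1.93 (SE 0.17, limma adjusted p = 1.82e-04), a level 3.81-fold lower with a 95% interval from 2.92 to 4.98. With normexp background correction of the mean signal in place of the processed signal the difference was -1.06 (adjusted p = 7.82e-05), so the size of the fall depended on how background was handled while its direction did not.

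**Figure D2:**
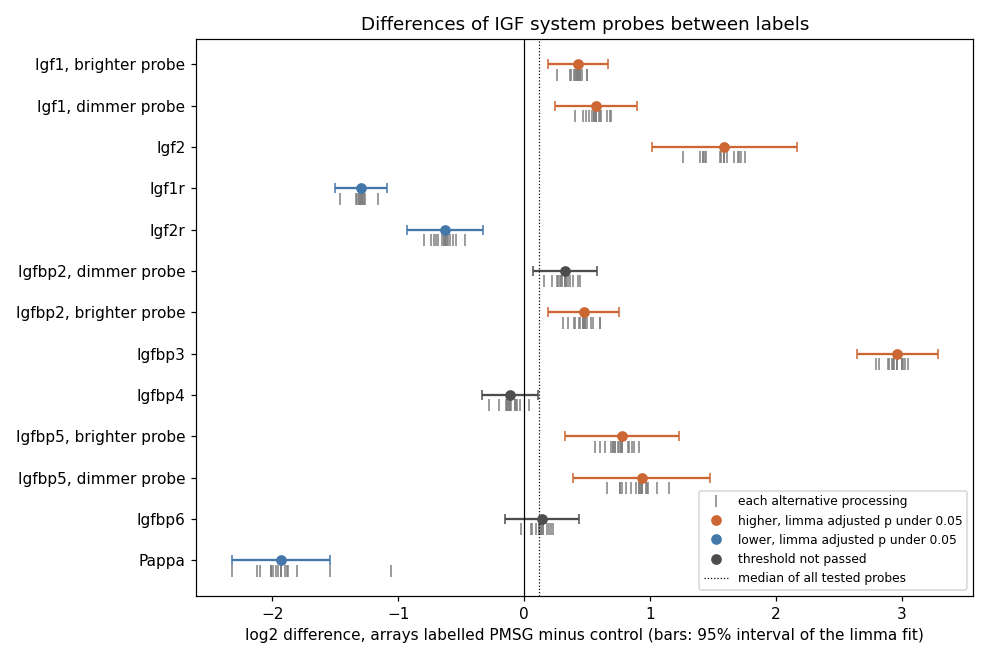
Log2 difference, arrays labelled PMSG minus arrays labelled control, for each of the 13 probes, with the 95% interval of the limma fit; orange marks probes called higher, blue probes called lower and grey probes that did not pass, and short grey ticks are the values under each alternative processing. Igfbp3 lies farthest to the right at 2.96 and Pappa farthest to the left at -1.93, with 1 tick at -1.06 for normexp background correction; the dotted line is the median of all tested probes, 0.11.

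The differences were also taken within each row of the slide, with 2 arrays of each label per row. Igfbp3 differed by 3.01 in row 1 and 2.92 in row 2, Igf2 by 1.42 and 1.76, and Igf1r by -1.28 and -1.31. Pappa differed by -2.32 and -1.54, and Igf2r by -0.72 and -0.54. The brighter probe of Igf1 differed by 0.46 and 0.40, that of Igfbp2 by 0.60 and 0.35, and that of Igfbp5 by 0.82 and 0.72. Each of these 8 genes thus differed in the same direction in both rows. Of all 25303 tested probes, 23234 in row 1 and 22188 in row 2 kept the direction of the fit over all arrays. The 8 genes were called from these same arrays, so the shared direction is not a separate result. By limma, row 1 alone called 4 of the 10 genes (Igf2, Igf1r, Igfbp3 and Pappa), against 13.2% of all probes. Row 2 alone called 0 of the 10 genes and 0 of all probes. At an unadjusted limma p under 0.05 there were 4 of the 10 genes, against 6015 of all 25303 probes.

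Arrays of 1 label differed among themselves in a pattern that several members shared. Control array 1 was the lowest control array for 6 of the 10 genes (Igf1, Igf2, Igf1r, Igfbp3, Igfbp5 and Igfbp6). Control array 3 was the highest for 6 (Igf1, Igf2, Igfbp3, Igfbp4, Igfbp5 and Igfbp6). After the mean of each label was taken off, 7 of the 45 pairs of members correlated past 0.75 in size over the 8 arrays. Igfbp3 and Igfbp5 correlated at 0.94, Igfbp5 and Igfbp6 at 0.83, and Igfbp3 and Igfbp6 at 0.75. Igf2 correlated with Igfbp5 at 0.80, with Igfbp3 at 0.79 and with Igfbp6 at 0.79. Igf1r and Igf2r correlated at -0.82, although both were lower on PMSG arrays. These are descriptions over 8 arrays that share a slide. The same counts over all genes were not taken, so they are no result about the members.

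**Figure D3:**
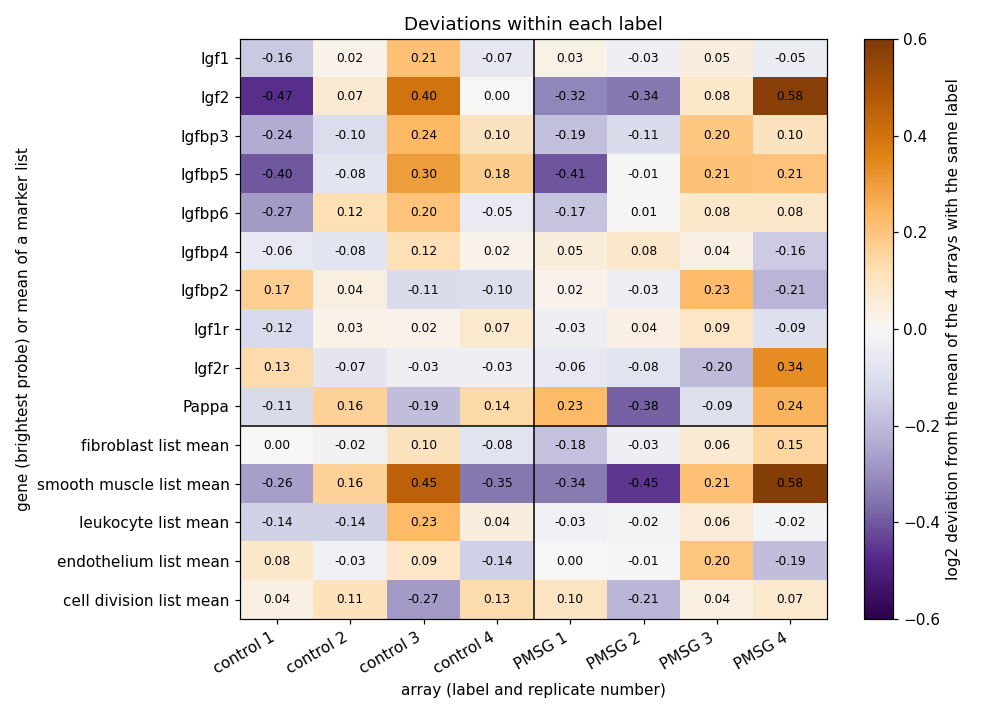
Deviation of each gene (brightest probe, upper rows) and of the mean of each of 5 marker lists (lower rows) from the mean of the 4 arrays with the same label, in log2 units; columns are the 8 arrays, orange is above and purple below that mean. Igf2, Igfbp3, Igfbp5 and Igfbp6 are low on control array 1 and high on control array 3, and Igf2 and the smooth muscle list share a deviation of 0.58 on PMSG array 4.

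Markers of several cell types that the ovary piece can hold differed as well, and their part in the differences above was not tested. The counts below stand against 34.5% of all genes called, 18% higher and 16.5% lower. Fibroblast markers, whose cells are known to make several IGF-binding proteins, had a mean level of 3.71 to 3.89 on control arrays and 4.00 to 4.33 on PMSG arrays, with 4 of 6 called higher. Leukocyte markers ran from -0.28 to 0.09 and from 0.39 to 0.48, with 4 of 5 called higher. Oocyte markers ran from -1.89 to -1.10 and from -0.22 to 0.88, with 6 of 6 called higher. Oviduct epithelium markers ran from -2.74 to -2.09 and from -0.78 to -0.31, with 5 of 6 called higher. Theca markers ran from 2.69 to 3.16 and from 3.31 to 4.37, with 1 of 2 called higher, and granulosa markers from 0.31 to 0.91 and from 0.82 to 1.21, with 2 called higher and 1 lower of 6.

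Endothelial markers ran from -0.79 to -0.56 on control arrays and from -1.23 to -0.83 on PMSG arrays, with 4 of 7 called lower and 1 higher. Cell division markers ran from 1.18 to 1.58 and from 0.87 to 1.18, with 2 of 5 called lower, and red blood cell markers from -0.09 to 1.78 and from -0.96 to -0.14, with 1 of 3 called lower. Smooth muscle markers ran from 2.24 to 3.04 and from 2.02 to 3.05, with 0 of 5 called by limma. At an unadjusted limma p under 0.05 there were 0 of 5, against 11475 of all 25303 probes. Adipocyte markers ran from -1.73 to 1.04 and from -3.35e-05 to 1.17, with 1 of 5 called higher. None of these lists held a marker that was below background on all 8 arrays. With label means taken off, 8 of the 120 correlations between a member and the mean of a list were past 0.75 in size, each over 8 arrays. The share past 0.75 among genes outside the members was not computed, so this count is no result about the members. Igf2 followed the smooth muscle list at 0.90 and ran against the theca list at -0.87. Igfbp3 followed the leukocyte list at 0.82 and Igf1 the same list at 0.76. Igfbp2 followed the endothelial list at 0.80, Igfbp4 the adipocyte list at 0.81 and Pappa the cell division list at 0.82, and Igf2r ran against the oocyte list at -0.76.

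Other genes of the pathway were taken as a list of 26, of which 22 had a probe and 18 were tested. Of the 18, 8 were called, all higher on PMSG arrays, against 34.5% of all genes tested and 18% called higher. Their median difference over the 18 was 0.46, against 0.12 over all genes tested. The dim genes Adam28, Insrr, Irs4 and Igf2bp1 were not tested, and Pappa2, Adam12, Gigyf2 and Igf2bp3 were not analysed here.

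Among the relatives of the binding proteins and their carrier, 2 of 5 were called, against 34.5% of all genes tested. Kazald1, a secreted protein with an IGF-binding domain, had levels of 1.53, 1.22, 1.64 and 1.33 on control arrays and of 2.14, 2.64, 2.63 and 2.35 on PMSG arrays. The groups did not overlap, and the difference was 1.01 (SE 0.15, limma adjusted p = 0.00163). Igfals, the acid-labile subunit that joins IGF and IGFBP-3 in the circulating ternary complex, was higher by 0.60 (adjusted p = 0.0160), but by only 0.32 under quantile normalization and 0.29 with normexp, where it was not called.

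Among proteases and their inhibitors, 1 of 4 tested genes was called, against 34.5% of all genes tested. Stc1, a glycoprotein of the stanniocalcin family whose members inhibit pappalysins, had levels of -1.65, -1.83, -1.49 and -1.52 on control arrays and of -0.16, -1.33, -0.41 and -0.90 on PMSG arrays. All PMSG arrays were above all control arrays, with a wide spread among them. The difference was 0.92 (SE 0.24, limma adjusted p = 0.0208), and leaving out control array 1 (0.91), control array 2 (0.85) or PMSG array 3 (0.82) each ended the call, as did leaving out PMSG arrays 3 and 4 together (0.87). Htra1, a serine protease that can cut IGFBP-5, had a difference of -0.30 and was not called (adjusted p = 0.162).

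Among receptor relatives and adaptors, 4 of 7 tested genes were called, against 34.5% of all genes tested: Irs2, Insr, Grb14 and Gigyf1. Grb14 was called by its brighter probe only, and its dimmer probe differed by 0.42 (limma adjusted p = 0.121). Irs2, an adaptor that couples the IGF-1 and insulin receptors to phosphoinositide 3-kinase, had levels of -1.76, -2.13, -1.69 and -1.92 on control arrays and of -0.68, -0.66, -1.24 and -1.27 on PMSG arrays. The groups did not overlap, and the difference was 0.91 (SE 0.18, limma adjusted p = 0.00622). Insr, the insulin receptor and closest relative of Igf1r, was higher by 0.79 in its brighter probe (adjusted p = 0.0288), but that call was lost in 12 of 23 alternatives. The dimmer Insr probe differed by 0.07 and was not called, so the 2 Insr probes disagreed.

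Igf2bp2, which encodes an RNA-binding protein known to bind Igf2 mRNA, was higher by 1.11 in its brighter probe (limma adjusted p = 0.00403), and its dimmer probe differed by -0.14 without a call. The mean over both Igf2bp2 probes differed by 0.49 and was not called. Ghr, the growth hormone receptor that drives Igf1 expression in liver, had 3 probes that disagreed. The brightest differed by -0.16 and was not called, the next by 0.27 and was not called, and the dimmest by 0.80 with a limma adjusted p of 0.0211. Without control array 3 the brightest Ghr probe differed by 0.076.

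**Figure D4:**
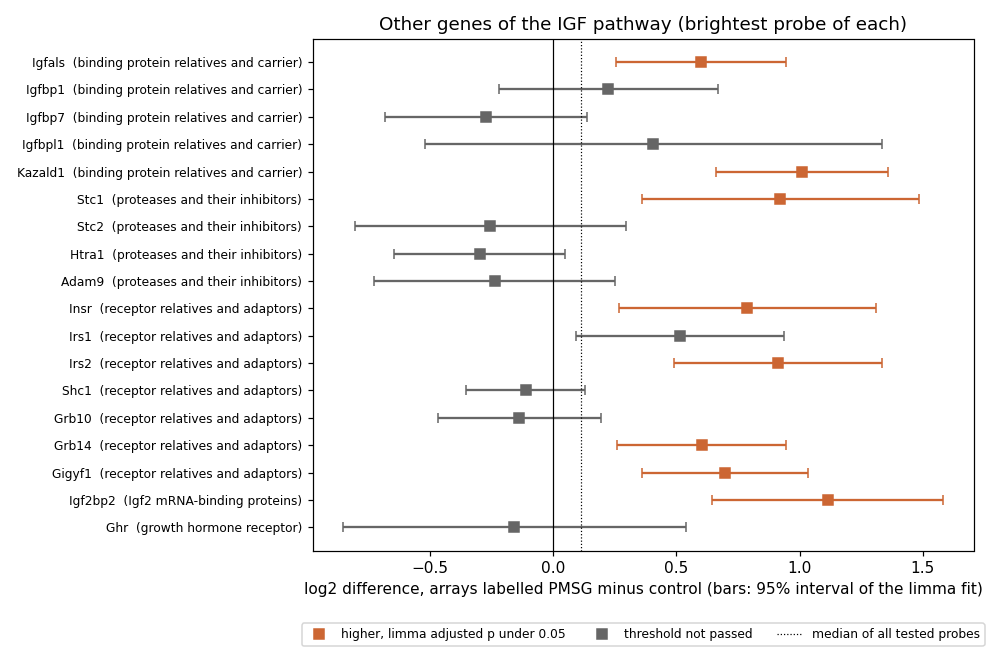
Log2 difference, arrays labelled PMSG minus arrays labelled control, of the 18 tested genes of the wider IGF pathway, each by its brightest probe, with the 95% interval of the limma fit; orange squares passed the threshold and grey squares did not. The 8 called genes all lie to the right of 0, between 0.60 and 1.11; the dotted line is the median of all tested probes, 0.11.

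The level of Igfbp3 was set against every other gene that was above background on all 8 arrays, 19975 genes in all. The 3 genes with the most similar pattern were Dpp7 (Pearson r 0.994), Nepn (0.994) and Prrt1 (0.993) over the 8 arrays. These correlations hold the difference between the labels. With label means taken off, r was 0.81 for Dpp7, 0.90 for Nepn and 0.22 for Prrt1. Dpp7 encodes a dipeptidyl peptidase and Nepn a small leucine-rich proteoglycan.

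Promoter sequence was matched for 9 of the 10 members in RefSeq's GRCr8 table, as 10 windows of 250 bases before an annotated start, Igf2 having 2. The Igf2r and Igfbp3 windows are shown as those of a member that fell and of the member with the largest rise. Each window was searched on both strands for GGGCGG, the core bound by Sp1-type factors, for the E-box CACGTG, for the cyclic AMP response core TGACG, for the nuclear receptor site AAGGTCA and for TATAAA. Capitals mark GGGCGG and CACGTG on the printed strand. The Igf2r window is chr1:50526628-50526877 on the plus strand and the Igfbp3 window chr14:86277945-86278194 on the minus strand, both GRCr8.
Igf2r: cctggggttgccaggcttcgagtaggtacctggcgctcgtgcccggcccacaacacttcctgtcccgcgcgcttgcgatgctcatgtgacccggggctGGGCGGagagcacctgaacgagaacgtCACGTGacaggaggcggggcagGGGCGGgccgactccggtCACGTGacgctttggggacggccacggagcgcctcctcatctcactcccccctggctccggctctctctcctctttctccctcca
Igfbp3: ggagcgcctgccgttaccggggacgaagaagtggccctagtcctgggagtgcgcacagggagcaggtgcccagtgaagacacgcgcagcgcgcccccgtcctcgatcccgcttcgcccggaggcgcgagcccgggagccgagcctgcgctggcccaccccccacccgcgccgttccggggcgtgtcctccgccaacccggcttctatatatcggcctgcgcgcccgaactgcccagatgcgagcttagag

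The Igf2r window held GGGCGG 2 times, CACGTG 2 times and TGACG 2 times, each TGACG overlapping a CACGTG by 2 bases, and the Igfbp3 window held none of the 5 motifs. Among the 10 windows, GGGCGG was in 4 (Igf1r, Igf2r, Igfbp2 and 1 of the Igf2 windows), against 30.5% of the 33469 windows in the table. CACGTG was in 3 (Igf1r, Igf2r and Igfbp2), against 5.59%. These 3 genes include both receptors, which were lower, and Igfbp2, which was higher. TGACG was in 1 window, against 18.2%, AAGGTCA in 0, against 3.99%, and TATAAA in 1 (Igfbp4), against 12.9%. Such matches describe the letters in these windows only.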

How the data were processed

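The deposited scanner files hold spot intensity from Agilent Feature Extraction 11.5.1.1, per the file headers, and their processed signal is already background-subtracted and detrended. Total RNA, 500 ng per array, was primed with oligo-dT and labelled with Cy3, per the labels' protocols. A table of log2 values from the authors served as an alternative. Set against the scanner intensities, each of its columns matched its own array best and equalled log2 signal minus the 75th percentile of the array without centring of probes; column medians ran from -3.21 to -2.82. No direction applies to such 1-colour values. Table columns not used numbered 0.

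Control spots and outlier spots were left out and the log2 intensities of the spots of a probe were averaged. Of 30367 probes, 17 had no usable spot on some array. The 75th percentile signal ran from 769 to 1103 over the arrays, 80.8% to 84.6% of probes were well above background, and no spot was saturated. Probes well above background on at least 4 of 8 arrays, 25303 in all, were fitted by lmFit and eBayes of limma 3.58.1 (R 4.3.3) without covariates, with Benjamini-Hochberg adjustment over all of them. The number of arrays, 4 per label, limits the precision. Pairs of genes were compared by exact permutation in scipy 1.17.1. The fit was tested on simulated data in which 200 of 25303 probes were changed. It recovered 53% of log2 differences of size 1 and 84% of those of size 2, with 6 false calls. Fewer probes were changed there than were called in the data, so these shares need not hold for the data.

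Probes carry the gene names in the array files; probe positions are on rn4 and promoter windows on RefSeq's GRCr8, with nothing converted between them. Groups were taken from the sample titles. The members, the pathway list and the 12 marker lists were chosen with earlier results of these data known. The text names every member probe, the 2 genes with the largest difference in each part of the pathway list, 4 genes of the gonadotropin response list, Amh and the 3 genes most like Igfbp3; Grb14, Gigyf1 and Igfbp1 were named after their values were seen. Alternatives were quantile normalization, median centring, normexp background correction with an offset of 50, the deposited table, other filters, outlier spots kept, array weights, an equal-variance test per probe, blocks for replicate number and slide row, each slide row alone, each array left out, PMSG arrays 3 and 4 left out together, and the mean over probes of a gene.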

Additional observations from a re-analysis of the deposited data

Results flagged for a closer look

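Igfbp4 on PMSG array 4 stood apart from the other 3 PMSG arrays, with a level of 3.30 against 3.49 to 3.53. The gap to the nearest of them was 0.831 of the range of the 4 arrays. This was the 1 such case among 52 sets of 4 arrays examined (26 probes, the 13 of the members among them, under both labels), where chance gives about 1 in 20, or 2.6. Without that array the Igfbp4 difference was -0.06, again not called.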

How the results depend on the processing

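The direction of all 8 called members was the same in all 23 alternatives, which reuse the same arrays. The deposited table, normexp, the filters, array weights and a block for slide row each called the same 8 genes. Those settings called 26.9% to 43.5% of all probes. Centring on medians called 5 genes, against 33.4% of all probes. It moves the median of all tested probes from 0.11 to -0.05, and quantile normalization moves it to 0.03. Within slide row 1 alone limma called 4 genes, 5 member probes and 3 other pathway genes, against 13.2% of all probes. Within row 2 alone it called 0, 0 and 0, and 0 of all probes. At an unadjusted limma p under 0.05 row 2 had 4, 4 and 6, against 6015 of all 25303 probes. Each row holds 2 arrays per label. Leaving out 1 array at a time gave 7 to 8 genes, 9 to 11 probes and 6 to 10 other pathway genes. Leaving out PMSG arrays 3 and 4 together, chosen after seeing the data for their low weights, gave 7, 7 and 9. This setting called 35.4% of all probes. The labels give both groups the numbers 1 to 4. Deviations of arrays with equal numbers correlated at r 0.04, 0.04, 0.18 and -0.02 over all tested probes, which cannot exclude that the arrays were paired. With the replicate number as a block 8 genes, 10 probes and 7 other pathway genes were called, against 29% of all probes. Igfbp4 turned to 0.037 under quantile normalization, Igfbp6 to -0.025 under median centring, and the brightest Ghr probe, which no alternative called, to 0.53 within row 1 and 0.31 as a mean over probes, with -0.39 to 0.076 when 1 array was left out. The cause of these changes was not tested. The mean over probes of a gene gives no count of probes.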
